A study of Mus musculus with 27 samples.

Results

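Radial glia and astrocyte progenitor genes were followed in the mouse optic stalk as a set of 10 genes: Fabp7, Slc1a3, Nes, Vim, Gja1, Nfia, Nfib, Nfix, Hopx and Aldoc. The set was named gene by gene, and part of it (Fabp7, Nes, Gja1 and Slc1a3) was chosen by measured values, the differences of these genes between stalk regions in the same libraries. For those 4 genes the levels across regions are therefore a description, and no test between regions is given. Tests between genotypes use the same libraries, so for these 4 genes they are not independent of the choice either. All 10 genes were found among the 55487 genes of the count table, and all 10 passed the count filter (above 10 reads in 3 or more of the 27 libraries), which kept 16330 genes. A gene can pass that filter through a few libraries in which it is high, and 3 members (Nfix, Hopx and Aldoc) did so with counts of 0 in others.

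The libraries came from mouse embryos at embryonic day 14. Laser capture took a dorsal piece, a ventral piece and a piece rich in retinal ganglion cell axons from the optic stalk of 4 control and 5 mutant embryos, giving 6 groups of 4 or 5 libraries. Mutants (Smarcc1-DCT-cKO) carried loxP-flanked alleles of Smarcc1, also named Baf155, together with Dct-Cre. The study's line also has the Z/EG reporter, and which of these embryos carried it is not given in the sources used here. Controls were littermates without Dct-Cre, and the lines were kept on a C57Bl6/J background. Its protein is a structural core of SWI/SNF, a complex that moves nucleosomes. Dct is a pigment gene, so Cre was active in pigment lineages and the optic stalk and in only part of the optic disc progenitors. The labels also give each library a batch, A (in each region 1 control, 3 mutants) or B (3 controls, 2 mutants).

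Radial glia are the elongated progenitors of the neural tube, and in the optic stalk progenitors of this kind give rise to the astrocytes of the optic nerve. Vim and Nes encode intermediate filament proteins of such progenitors, Fabp7 a fatty acid carrier, and Slc1a3 the glutamate transporter GLAST. Gja1 encodes the gap junction protein connexin 43, Hopx a small homeodomain protein, and Aldoc a glycolytic aldolase of mature astrocytes. Nfia, Nfib and Nfix encode nuclear factor I (NFI) proteins, transcription factors with a role in the onset of gliogenesis. Vim, Nfia, Nfib and Gja1 are also expressed in connective tissue, and Vim in most mesenchymal cells.

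The promoters of 9 of the 10 members were found in the RefSeq set for build GRCm38.p6, as windows of 300 bases that run from 250 bases before a start site to 50 after it. There was no entry for Nfib. The windows of 3 members are shown because Slc1a3 and Vim had the smallest p-values between genotypes among the members counted in every library, and Fabp7 differed most between its highest and lowest library. Capitals mark the NFI half-site TTGGC on either strand. Each sequence is written 5′ to 3′ on the strand of its gene.
Vim, chr2:13574061-13574360, plus strand: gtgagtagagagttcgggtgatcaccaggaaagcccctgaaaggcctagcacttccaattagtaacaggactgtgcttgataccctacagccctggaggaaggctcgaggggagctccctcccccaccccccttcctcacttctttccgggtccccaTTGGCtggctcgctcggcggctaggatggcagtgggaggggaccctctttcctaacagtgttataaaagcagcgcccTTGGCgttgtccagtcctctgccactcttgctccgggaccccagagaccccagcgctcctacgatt
Fabp7, chr10:57784673-57784972, plus strand: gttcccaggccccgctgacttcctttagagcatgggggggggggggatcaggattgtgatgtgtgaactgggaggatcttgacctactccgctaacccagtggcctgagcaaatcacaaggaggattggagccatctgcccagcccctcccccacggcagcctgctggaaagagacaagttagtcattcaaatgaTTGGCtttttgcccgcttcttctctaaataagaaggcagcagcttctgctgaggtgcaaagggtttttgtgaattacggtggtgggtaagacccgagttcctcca
Slc1a3, chr15:8710758-8711057, minus strand: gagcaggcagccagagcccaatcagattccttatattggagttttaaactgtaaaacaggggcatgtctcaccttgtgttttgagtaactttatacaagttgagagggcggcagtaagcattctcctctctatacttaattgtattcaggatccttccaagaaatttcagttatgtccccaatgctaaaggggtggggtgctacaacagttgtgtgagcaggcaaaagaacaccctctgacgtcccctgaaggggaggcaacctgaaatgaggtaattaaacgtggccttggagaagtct

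The Vim window held 2 NFI half-sites, starting 93 and 16 bases before the start site, and a TATA box (TATAAA) starting 32 bases before it. The Fabp7 window held 1 NFI half-site, 55 bases before the start. In each of these windows 1 half-site overlapped a reversed CCAAT box, with which TTGGC shares 4 letters. The Slc1a3 window had no half-site and 3 CCAAT boxes. A half-site of 5 letters is common, being present in 46.7% of the 32851 promoter windows of the set, and CCAAT in 37.4%. The full palindrome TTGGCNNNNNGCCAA was in none of the members' 14 windows and in 0.0365% of all windows. The SOX core AACAAT, present in 10.7% of all windows, was found in 1 of the 2 Hopx windows and in no other member window. The single Nfia window lies far upstream of the GENCODE gene start. All 4 Nfix windows have start sites 20262 to 27469 bases downstream of the GENCODE gene start. The Hopx window with the SOX core has its start site 19854 bases downstream. A match is a run of letters and not a measured binding site.

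Total counts ran from 10.9 to 34.0 M (M, 1000000 counts) per library, so that 1 read is worth 0.0294 to 0.0917 counts per 1000000 (CPM) and 3 reads, the limit that a count of 0 allows, 0.0883 to 0.275 CPM. Axon libraries had the fewest detected genes (9225 to 14118) and the highest share of mitochondrial counts (7.49% to 15.4%), against 10881 to 16266 genes and 4.19% to 7.63% in the dorsal region. Smarcc1 ran from 75.7 to 198 CPM in ventral controls and 14.7 to 64.4 CPM in ventral mutants, and from 50.1 to 242 and 1.86 to 44.9 CPM in the axon region, without overlap. In the dorsal region the ranges overlapped, at 75.9 to 289 CPM in controls and 2.26 to 107 CPM in mutants, because dorsal mutants 1 and 2 lay within the control range. Reads over the whole gene do not separate deleted from intact transcripts. Dorsal control 3 stood apart in its tissue markers, with the highest mesenchyme level (11460 CPM) and the lowest pigment level (39.5 CPM) of the dorsal libraries.

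Per length, Fabp7 and Vim were the most abundant members. The median over the 27 libraries was 448 CPM per kilobase of exon for Fabp7 and 367 for Vim. Gja1 followed at 67.8, Slc1a3 at 34.7, Nes at 17.8, Nfib at 15.1 and Nfia at 8.76 CPM per kilobase. These 7 genes had a count in every library. Nfix had counts in 19 libraries with a median of 0.192 CPM per kilobase, Hopx in 11 and Aldoc in 5.

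Fabp7 (chr10:57784881-57788450, plus strand; mm10 and GENCODE M21 here and below) was low in the dorsal stalk and high in the other regions, in both genotypes. The dorsal controls (replicates 1 to 4) held 221, 108, 162 and 175 CPM, against 970, 490, 581 and 515 CPM in the ventral controls. In axon controls the values were 711, 1320, 2584 and 1346 CPM. The dorsal range lay wholly below both of the others, as for 1.39% (against ventral) and 1.5% (against axon) of all genes tested, and the ventral and axon ranges overlapped. The control means were 3.84 times as high in the ventral and 8.94 times as high in the axon as in the dorsal region.
Mutants showed the same step. Their dorsal values were 17.2, 86.7, 57.5, 140 and 204 CPM, their ventral values 869, 560, 682, 542 and 962 CPM, and their axon values 989, 455, 875, 762 and 1065 CPM. No dorsal mutant library reached the lowest ventral or axon one, which held for 0.928% and 1.06% of all genes. In the order of the 6 group means (1490 ± 786 CPM in axon controls down to 101 ± 72.7 CPM in dorsal mutants; SD, n = 4 and n = 5), the only neighbours without overlap were ventral controls and dorsal controls.

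Nes (chr3:87971078-87980451, plus strand), the nestin gene, was highest in the axon region. Axon controls held 991, 412, 627 and 353 CPM and axon mutants 475, 735, 1059, 536 and 592 CPM. The ventral controls held 140, 103, 155 and 111 CPM and the dorsal controls 47.4, 97.2, 76.2 and 114 CPM. Every axon library was above every ventral and dorsal library. The ventral libraries of 1.11% (control) and 0.842% (mutant) of all genes lay wholly below the axon ones. For the dorsal libraries the shares were 1.5% (control) and 1.06% (mutant). In contrast, the ventral and dorsal control ranges overlapped. The axon mean was 4.68 times the ventral and 7.12 times the dorsal mean in controls. In mutants the corresponding ratios were 7.57 and 15.9. The ventral mutants varied most for their level, from 14.6 to 175 CPM.

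Gja1 (chr10:56377330-56402513, plus strand) ran the other way. The axon controls held 72.0, 210, 141 and 174 CPM, and the axon mutants 411, 93.0, 124, 294 and 304 CPM. Ventral values were 778, 578, 727 and 696 CPM in controls and 1011, 548, 1236, 631 and 727 CPM in mutants. Dorsal values were 1213, 713, 236 and 1863 CPM in controls and 1733, 1209, 2270, 1633 and 1095 CPM in mutants. Within each genotype all axon libraries lay below all dorsal and ventral ones. Of all genes, 2.91% in controls and 3.12% in mutants were higher in the dorsal than in the axon region without overlap, and 2.69% and 2.59% in the ventral than in the axon region. The dorsal and ventral ranges of Gja1 overlapped. Dorsal control 3, the library with few pigment transcripts, was the lowest dorsal library of Gja1. The dorsal mean was 6.75 times the axon mean in controls and 6.48 times in mutants.

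Slc1a3 (chr15:8634124-8710764, minus strand) had similar means in the regions of controls. Its mean was 389 ± 147 CPM in the dorsal, 393 ± 87.5 CPM in the ventral and 406 ± 261 CPM in the axon region (SD, n = 4), with overlapping ranges. In mutants the dorsal mean was 116 ± 35.1 CPM, against 394 ± 140 CPM in the ventral and 353 ± 154 CPM in the axon region (SD, n = 5). No dorsal mutant library reached the lowest ventral mutant, which held for 0.928% of all genes, and 4 of 5 were below the lowest axon mutant.

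**Figure D1:**
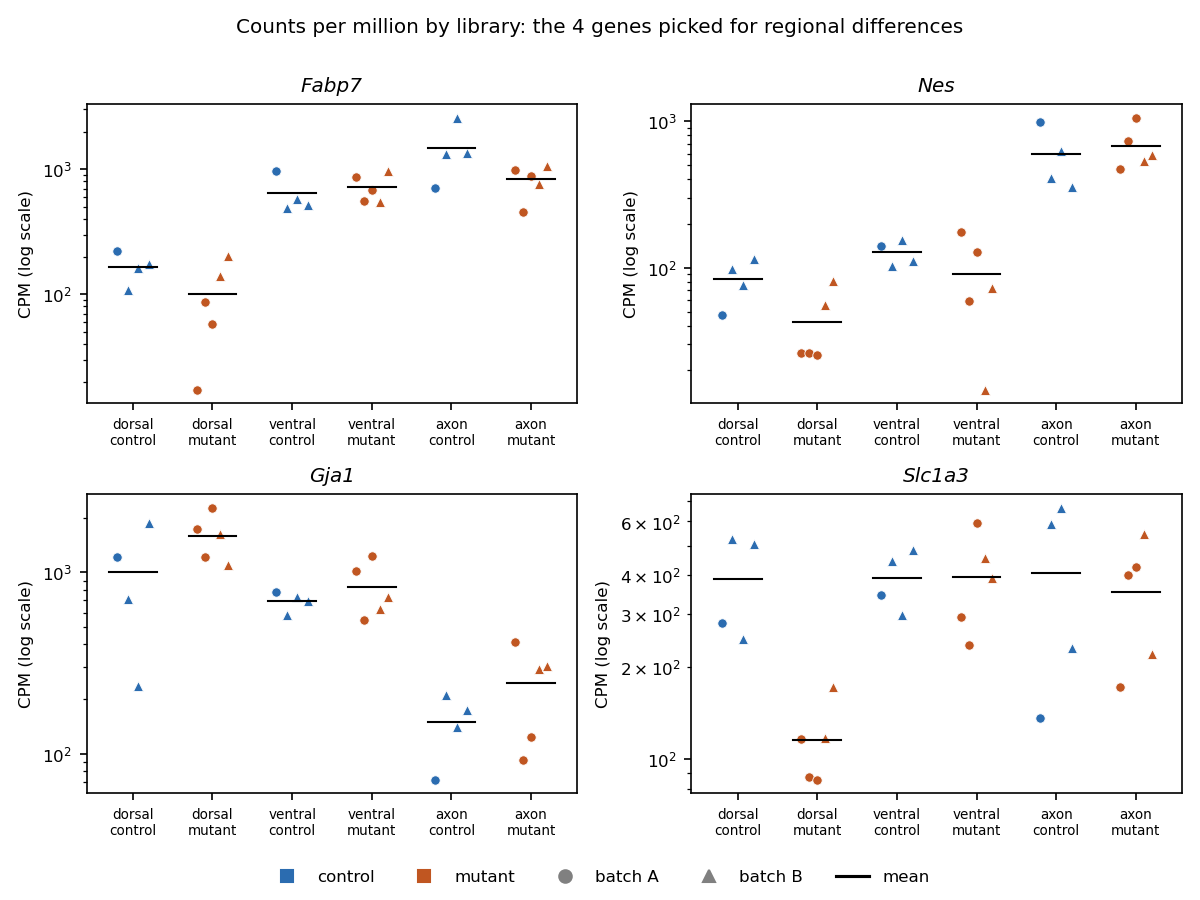
CPM (log scale) of Fabp7, Nes, Gja1 and Slc1a3 in the 27 libraries, by region and genotype, with circles for batch A, triangles for batch B and a bar at each group mean. Fabp7 is lowest in the dorsal region, Nes is highest and Gja1 lowest in the axon region, and the lowest group mean of Slc1a3 is that of the dorsal mutants, 116 CPM.

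Vim (chr2:13573927-13582826, plus strand), Nfia (chr4:97772734-98118874, plus strand) and Nfib (chr4:82290173-82705750, minus strand) were not picked for regional differences and were tested between regions with edgeR's quasi-likelihood test, with p-values adjusted (Benjamini-Hochberg) over all genes. Calls required an adjusted p under 0.05 together with a log2 fold change beyond 0.58 in either direction. Vim was called lower in the dorsal than in the axon region of mutants, where 0.545% of the 15780 genes tested were called in either direction. The dorsal mutants held 749, 489, 1035, 900 and 1020 CPM and the axon mutants 2365, 1662, 1794, 2181 and 2265 CPM, without overlap. In that comparison 1.06% of all genes were lower without overlap. The edgeR log2 fold change of Vim was -1.47 ± 0.18 (SE) and the adjusted p 0.0007.
Between the dorsal and ventral regions of mutants, 0.928% of all genes were lower in the dorsal region without overlap, Vim among them. Its ventral values were 1843, 1248, 2400, 2384 and 1999 CPM. Its log2 fold change was -1.22 ± 0.21 (SE) at an edgeR adjusted p of 0.0625, which missed the threshold, and 0 genes were called in that comparison (12.4% had an unadjusted p under 0.05). With the replicate number as a block the value was -1.23 and the edgeR adjusted p 0.014, past the threshold. No label ties these numbers to embryos, and the call of that fit holds only if they do. Without a block, DESeq2 (adjusted p 0.000151), the newer edgeR method (0.0022) and edgeR without a count filter (0.00497) also called Vim. It was not called with limma voom, another scaling or all 27 libraries in 1 fit. In controls Vim was not called in any regional comparison (0% of all genes for dorsal against ventral, 0.0692% for dorsal against axon and 0.0316% for ventral against axon), with an unadjusted p of 0.047 and an adjusted p of 0.386 in edgeR for dorsal against axon (log2 fold change -0.69).

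Nfia and Nfib were not called in any of the 6 regional comparisons, and no member tested was called between the ventral and axon regions of mutants (0.443% of all genes). Nfib was highest in dorsal controls, at 267, 482, 1266 and 400 CPM, against 123, 440, 235 and 230 CPM in ventral controls. These ranges overlapped, and the log2 fold change of 1.25 ± 0.50 (SE) had an edgeR adjusted p of 0.615. Nfia had its highest mean in ventral controls (187 ± 105 CPM; SD, n = 4) and its lowest in dorsal mutants (39.9 ± 20.9 CPM; SD, n = 5). Of the Nfia values in mutants, 4 of 5 dorsal ones were below the lowest ventral one, with a log2 fold change of -1.37 ± 0.52 (SE) and an edgeR adjusted p of 0.382.

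The next question was whether loss of Smarcc1 went with lower levels of these genes in each region. No member was called between genotypes in any region with edgeR, where 0.0124% of 16145 genes were called in the dorsal, 0% of 16139 in the ventral and 0% of 14977 in the axon region. In the dorsal region, 4 members (Slc1a3, Vim, Nfia and Nfib) were lower in mutants without overlap of the groups. Of all 16145 genes tested there, 1.61% were lower without overlap and 1.31% higher. The same 4 members had an unadjusted edgeR p under 0.05 in the lower direction, which 2.68% of all genes had. Their adjusted p-values ran from 0.293 to 0.918, so none passed the correction. Slc1a3 was picked on values of these libraries, so its place among the 4 is not independent of that choice.

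Slc1a3 showed the smallest p. It was picked for differences between regions, and its group means differed mainly through the dorsal mutants. Its p-values between genotypes thus reuse values that may have picked it, and are a description. The dorsal controls held 279, 526, 247 and 507 CPM and the dorsal mutants 117, 87.6, 85.8, 117 and 173 CPM. All 5 mutants lay below the lowest control, and the control mean was 3.36 times the mutant mean. The edgeR log2 fold change was -1.51 ± 0.31 (SE), with an unadjusted p of 0.000407 and an adjusted p of 0.293. DESeq2, the method the study used, called it, at -1.56 and an adjusted p of 0.000205. Within batch A the single control held 279 CPM against a mutant mean of 96.7 CPM, and within batch B the means were 426 and 145 CPM.

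Vim in the dorsal controls was at 1737, 1360, 2575 and 1344 CPM, all above the highest dorsal mutant at 1035 CPM. The control mean was 2.09 times the mutant mean. Its edgeR log2 fold change was -0.98 ± 0.27 (SE), with an unadjusted p of 0.00372 and an adjusted p of 0.865. The batch means were 1737 against 758 CPM in batch A and 1760 against 960 CPM in batch B. Without any filter on low counts edgeR called it, at an adjusted p of 0.000853.

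Both abundant NFI genes had lower values in dorsal mutants. Nfia was at 95.4, 178, 262 and 87.7 CPM in dorsal controls and 42.8, 11.8, 65.5, 27.4 and 51.8 CPM in dorsal mutants. The highest mutant was below the lowest control, and the edgeR log2 fold change was -1.80 ± 0.67 (SE; unadjusted p = 0.0197, adjusted p = 0.918). For Nfib the dorsal mutants held 225, 74.1, 216, 211 and 191 CPM, below the lowest control at 267 CPM. The edgeR log2 fold change of Nfib was -1.39 ± 0.49 (SE; unadjusted p = 0.0157, adjusted p = 0.918).

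**Figure D2:**
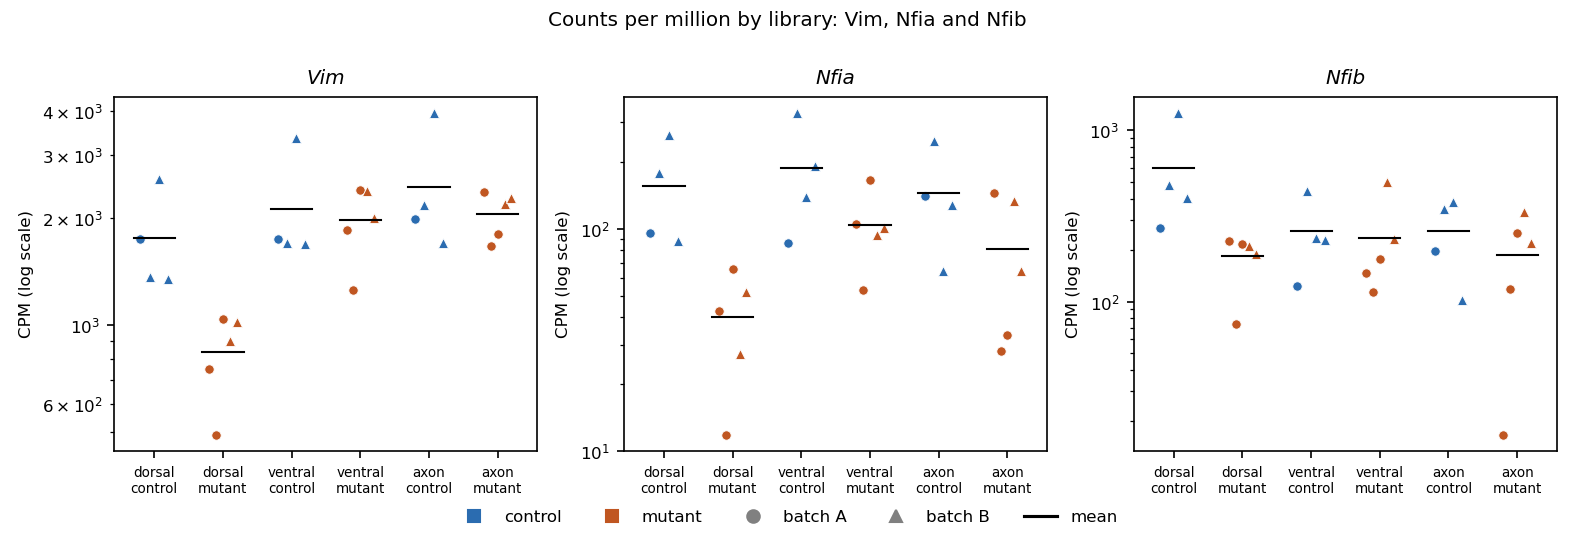
CPM (log scale) of Vim, Nfia and Nfib in the 27 libraries, by region and genotype, with circles for batch A, triangles for batch B and a bar at each group mean. All 5 dorsal mutants lie below all 4 dorsal controls for each of these genes, and the genotypes overlap in the other regions.

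In an exact permutation test of log2(CPM + 1) over all splits of the 9 dorsal libraries (two-sided), Slc1a3, Vim and Nfib each had p = 0.00794, the smallest value it can give. Nfia had an exact permutation p of 0.0159. Over the 40 splits that keep the batches, the exact p was 0.025 for each of the 4, again the smallest possible. Adjusted over all genes, the exact permutation p-values ranged from 0.450 to 0.507. An adjusted p under 0.05 would need far more genes at the smallest possible value, so this adjustment cannot decide. The small unadjusted values follow almost wholly from the lack of overlap given above. A permutation p under 0.05 in the lower direction was found for 3.98% of all genes.

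The other members did not separate the genotypes in the dorsal region. Fabp7 had a log2 fold change of -0.71 ± 0.56 (SE; edgeR unadjusted p = 0.233), with 3 of 5 mutants below the lowest control. These 3 were the batch A mutants, and in batch B the mutant mean (172 CPM) was above the control mean (148 CPM). Nes had -0.62 ± 0.60 (SE; edgeR unadjusted p = 0.328). Gja1 was the only abundant member with a positive value, 0.56 ± 0.46 (SE; edgeR unadjusted p = 0.245). Over the 7 members with counts in every library the median log2 fold change was -0.98, beside -0.04 over all genes.

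The dorsal controls and mutants also differed in markers of other tissues. The summed level of 12 mesenchyme genes was 1271 to 11460 CPM in dorsal controls and 56.5 to 397 CPM in dorsal mutants, without overlap. All 12 had a negative log2 fold change (median -3.69), and 8 had an unadjusted edgeR p under 0.05, although none was called. The collagen gene Col1a1 ran from 0.596 CPM upwards in mutants and from 29.4 CPM upwards in controls, and none of the 12 markers was at 0 throughout either group. Pigment cell genes (8 genes) ran from 39.5 to 4912 CPM in dorsal controls and 3143 to 12280 CPM in mutants, with overlap. All 8 had a positive log2 fold change (median 2.16), and none was called. Singly, 2 of them were higher without overlap, as were 1.31% of all genes. Endothelial genes (8) ran from 240 to 452 and 43.2 to 420 CPM, and neuronal genes (10) from 1.87 to 1308 and 55.6 to 426 CPM. The part of these tissues in the lower levels of Slc1a3, Vim, Nfia and Nfib was not tested. In captured tissue, fewer cells of a type and less RNA per cell cannot be told apart.
Optic stalk markers (Pax2, Vax1, Vax2, Sox2, Sox9 and Ntn1) summed to 420 to 924 CPM in dorsal controls and 165 to 342 CPM in dorsal mutants, again without overlap. Of these 6 genes, 5 had a negative and 1 a positive log2 fold change there (median -1.08), and none was called. Singly, 2 of them were lower without overlap, as were 1.61% of all genes. In the ventral region they reached 801 to 820 CPM in controls and 544 to 1153 CPM in mutants. Stalk markers were thus detected in each region, with Vax2 at 0 in all axon mutants.

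**Figure D3:**
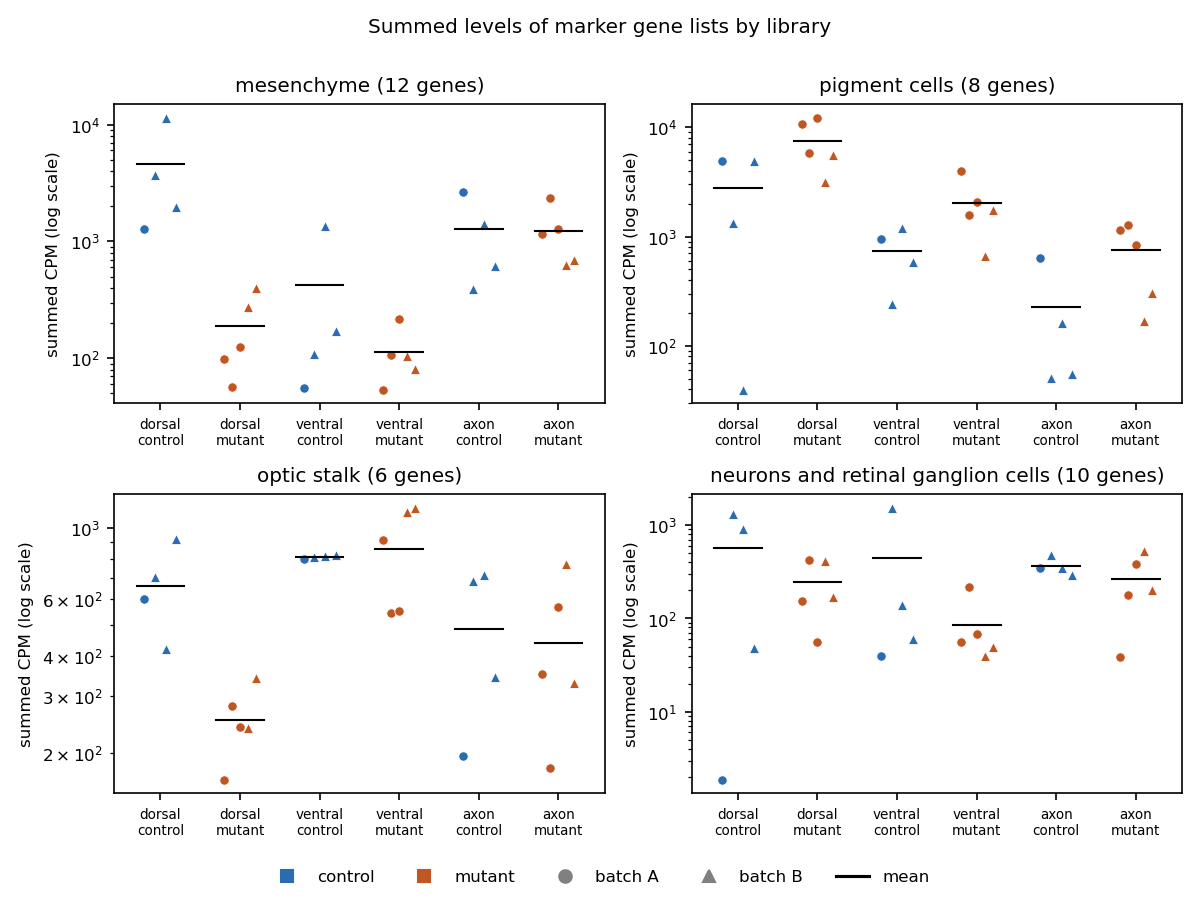
Summed CPM (log scale) of mesenchyme, pigment cell, optic stalk and neuronal marker lists in the 27 libraries, by region and genotype, with circles for batch A, triangles for batch B and a bar at each group mean. In the dorsal region the mesenchyme and optic stalk sums of controls and mutants do not overlap, at 1271 to 11460 against 56.5 to 397 CPM for mesenchyme.

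Without dorsal control 3, the library richest in mesenchyme transcripts, the log2 fold changes were -1.67 for Slc1a3, -0.77 for Vim, -1.50 for Nfia and -0.89 for Nfib, with edgeR adjusted p-values from 0.177 to 0.895. The value of Nfib changed most when that library was left out. The remaining dorsal controls still held 1271, 3666 and 1968 CPM of summed mesenchyme markers, against at most 397 CPM in dorsal mutants. Leaving out dorsal control 3 therefore did not remove the mesenchyme difference between the genotypes.

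In the ventral region no member separated the genotypes (0.706% of all genes were lower and 0.52% higher without overlap), and none was lower at an unadjusted edgeR p under 0.05 (1.91% of all genes). Slc1a3 was at 344, 445, 296 and 485 CPM in controls and 292, 237, 592, 457 and 393 CPM in mutants, with a log2 fold change of 0.07 ± 0.30 (SE). The mean of Vim was 2115 ± 819 CPM in controls (SD, n = 4) and 1975 ± 473 CPM in mutants (SD, n = 5). Nfia was at 86.0, 331, 138 and 192 CPM in ventral controls and 105, 53.0, 165, 93.9 and 101 CPM in ventral mutants. These ranges overlapped with a control mean 1.81 times the mutant mean, and its log2 fold change was -0.66 ± 0.53 (SE; edgeR unadjusted p = 0.236). Nes had the smallest p there, with -1.06 ± 0.63 (SE; edgeR unadjusted p = 0.12). The median over the 7 abundant members was 0.07, beside -0.08 over all genes. Mesenchyme markers overlapped between the ventral groups, at 55.5 to 1351 and 53.9 to 219 CPM.

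In the axon region no member separated the genotypes either (1.04% of all genes were lower and 0.24% higher without overlap), and none was lower at an unadjusted edgeR p under 0.05 (2.68% of all genes). Gja1 had the largest value, 1.05 ± 0.52 (SE; edgeR unadjusted p = 0.0619, adjusted p = 0.88), with 3 of 5 mutants above the highest control. Fabp7 had -0.57 ± 0.34 (SE; edgeR unadjusted p = 0.123), with its highest control, replicate 3, at 2584 CPM. The control mean of Nfia was 1.79 times its mutant mean, with overlapping ranges and a log2 fold change of -0.75 ± 0.73 (SE; edgeR unadjusted p = 0.324). The median over the 7 abundant members was -0.17, beside -0.29 over all genes. Mesenchyme markers were present in all axon libraries, at 389.5 to 2668 CPM in controls and 629 to 2348 CPM in mutants.

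**Figure D4:**
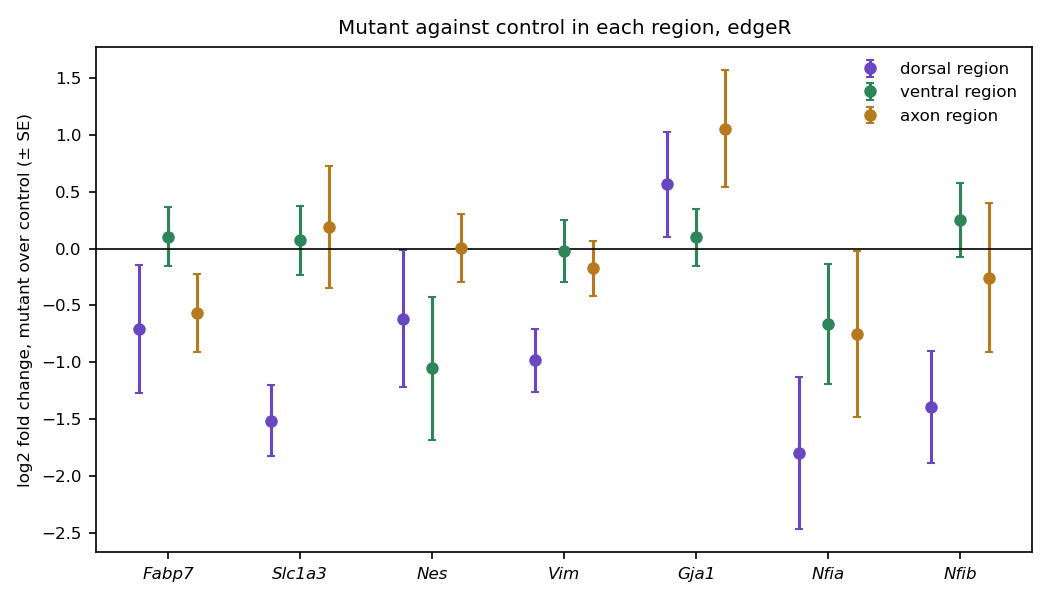
Log2 fold change of mutant over control with its standard error (edgeR) for the 7 members with counts in every library, in the dorsal, ventral and axon regions. Slc1a3, Vim, Nfia and Nfib are negative in the dorsal region, from -0.98 to -1.80, and in the ventral and axon regions Nfia is at -0.66 and -0.75, Nfib at 0.25 and -0.26, and Slc1a3 and Vim between -0.17 and 0.19.

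Whether the genotype difference itself varied between regions was tested for the 6 members not picked for regional differences. None was called as an interaction (0.00612% of all genes for dorsal against ventral, 0.0245% for dorsal against axon and 0.00612% for ventral against axon). Vim came closest, with a difference of the log2 fold changes of -0.97 ± 0.38 (SE) between the dorsal and ventral regions (edgeR unadjusted p = 0.0153, adjusted p = 0.517) and -0.80 ± 0.38 (SE) between the dorsal and axon regions (unadjusted p = 0.0425, adjusted p = 0.401). An unadjusted p under 0.05 was found for 7.39% and 11.7% of the 16330 genes in these comparisons. Aldoc, with counts in only 5 libraries, had an edgeR unadjusted p of 0.0227 between dorsal and ventral (adjusted p = 0.55), and no fold is given. Nfib had -1.43 ± 0.73 (SE) between dorsal and ventral, with an edgeR unadjusted p of 0.0624, and Nfia -1.16 with 0.167.

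Nfix, Hopx and Aldoc were sporadic. Nfix was at 0, 9.06, 102 and 10.6 CPM in dorsal controls, and its highest library was dorsal control 3, which also held the highest Nfib level. Its exons share 1.92% of their bases with genes on the opposite strand. Hopx reached at most 9.70 CPM, in ventral mutant 1, and shares 27.2% of its exonic bases with the antisense gene Hopxos, whose reads cannot be separated from it here. Aldoc had counts in dorsal mutants 2 and 5 (29.6 and 28.1 CPM), ventral controls 2 and 4 (23.2 and 11.4 CPM) and ventral mutant 2 (6.15 CPM), and 0 in every other library, including all 9 axon libraries. It was the only member higher in dorsal mutants at an unadjusted edgeR p under 0.05 (2.68% of all genes), at 0.0381 and an adjusted p of 0.918, with 3 of 5 mutants at 0 like all the controls, so no fold is given.

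**Figure D5:**
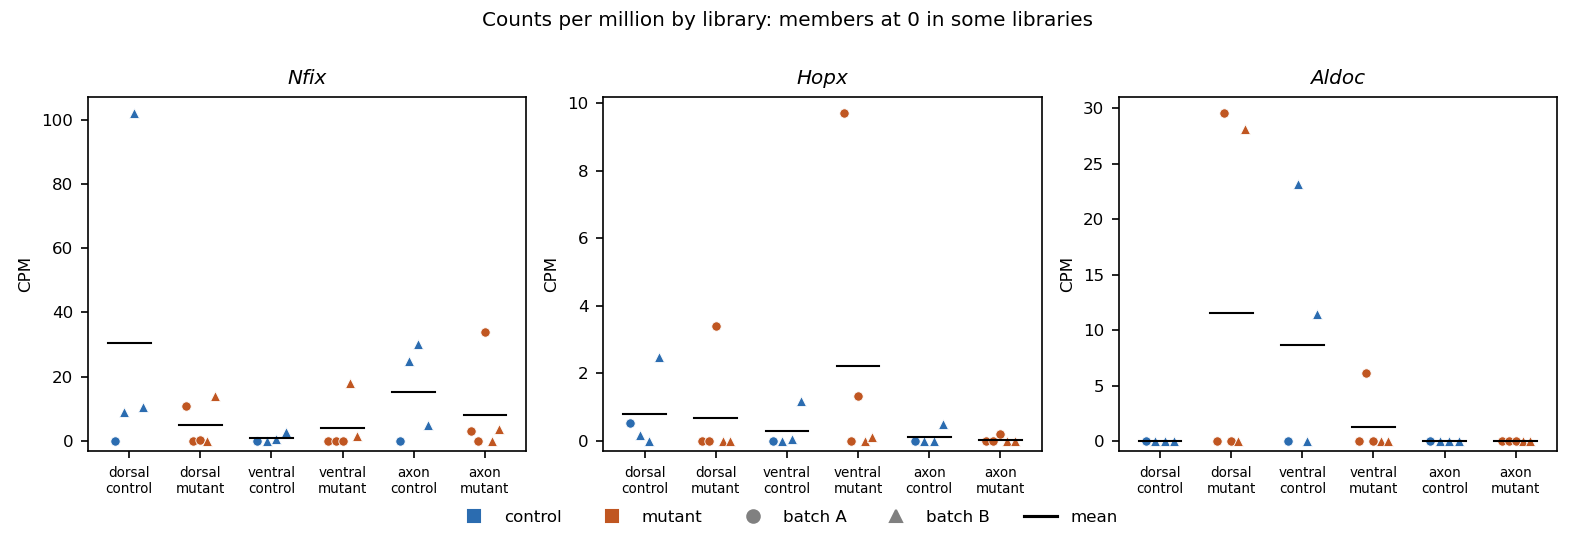
CPM of Nfix, Hopx and Aldoc in the 27 libraries, by region and genotype, with circles for batch A, triangles for batch B and a bar at each group mean. Most values lie at or near 0, and the highest is Nfix in dorsal control 3 at 102 CPM.

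Relatives of the members were read alongside them. Of 7 paralogues and filament partners (Nfic, Aldoa, Fabp5, Slc1a2, Gjb6, Gfap and Des), 5 were tested in the dorsal region and none was called, with a median log2 fold change of 0.15. Gfap, the filament gene of mature astrocytes, was at 0 in all dorsal libraries and in all ventral and axon controls, and Gjb6 was at 0 in all 27 libraries. Nfic, the fourth NFI gene, averaged 33.8 ± 13.2 CPM in dorsal controls (SD, n = 4) and 18.1 ± 11.1 CPM in dorsal mutants (SD, n = 5). The ubiquitous aldolase Aldoa averaged 473 ± 168 and 852 ± 281 CPM in the same groups, with an edgeR adjusted p of 0.918. Slc1a2, which encodes the glutamate transporter GLT-1 of later astrocytes, was at 0 in all dorsal controls and had a count in 4 of 5 dorsal mutants.

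Astroglial transcription factors and Notch effectors (15 genes, all tested) held no called gene in any region. In the dorsal region 2 had an unadjusted edgeR p under 0.05, both lower, and the median was -0.75 beside -0.04 over all genes. Hes1, a Notch effector that keeps progenitors undifferentiated, averaged 264 ± 57.6 CPM in dorsal controls (SD, n = 4) and 86.9 ± 12.2 CPM in dorsal mutants (SD, n = 5), with an adjusted p of 0.38. Sox9, which acts early in glial commitment and is itself also on the stalk marker list, averaged 257 ± 21.8 and 143 ± 39.2 CPM, with an edgeR adjusted p of 0.918. In the ventral and axon regions the list's medians were -0.08 and -0.07.

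Of 24 membrane, matrix and metabolic genes of radial glia and astrocytes, 20 were tested in the dorsal region and none was called, with 3 higher and 2 lower at an unadjusted edgeR p under 0.05 and a median of -0.24. Glul, the glutamine synthetase gene, averaged 69.0 ± 51.5 CPM in dorsal controls (SD, n = 4) and 413 ± 192 CPM in dorsal mutants (SD, n = 5). It was higher without overlap, as were 1.31% of all genes, and had an edgeR adjusted p of 0.664. In the ventral and axon regions the medians of this list were 0.03 and -0.06. Of the 8 later astrocyte genes, 4 were tested in the dorsal region and none was called.

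Across the 27 libraries, the genes whose log2(CPM + 1) ranked most like the mean standardised level of the 10 members were Zic5 (Spearman's rho 0.776), Zic1 (0.763), Itm2b (0.748), Zfp423 (0.738) and Cpne8 (0.729). For single members the closest genes were Pcp4l1 for Fabp7 (0.822), Trp53inp2 for Nes (0.816), Wls for Gja1 (0.87), Ptgfrn for Slc1a3 (0.817) and Gstm5 for Vim (0.712). The closest were A730094K22Rik for Nfia (0.69), Rel for Nfib (0.759), Col4a3bp for Nfix (0.727), 5830462O15Rik for Hopx (0.739) and Crygn for Aldoc (0.899). The libraries share regions, embryos and batches, so these values describe likeness over 27 points that are not independent.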

How the data were processed

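RNA was read from 27 laser-captured pieces, 1 library each, after PCR amplification without molecular identifiers, so floors cover counting error only. The authors used STAR for alignment of the single-end reads to mm10 and HTSeq for counting, and deposited raw counts per gene, unscaled. Versions, annotation and strand setting are not given in the sources used here. Gene positions and exon lengths came from GENCODE M21 (55227 of 55487 identifiers matched). Where identifiers shared a symbol, the most counted was used.

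CPM was the count divided by the library total. Genotypes were compared within each region (9 libraries, batch as a term), regions within each genotype, and interactions over all 27 libraries, with edgeR 4.0.16 (quasi-likelihood F-test, TMM) in R 4.3.3. Standard errors were derived from the F statistic. The study itself called genes with DESeq2, and its methods give the count filter and thresholds used here. DESeq2 1.42.0, limma 3.58.1, other scalings, filters and left-out libraries were alternatives. The tests were checked on simulated data. Exact permutation tests were two-sided, on log2(CPM + 1).

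The members, gene lists and tests were chosen with earlier results of these data known. Named genes were the 10 members, from each list the called genes or the 2 with the smallest p, and the genes ranked most like the members. Nfic, Gfap, Gjb6 and Vax2 were named after their values were seen. A gene of these lists that the rule would name is not reported here. P-values between genotypes within a region measure the spread between embryos. The main fits between regions and of interactions had no term for embryo, so they treat pieces of the same embryo as independent.

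Libraries of a genotype with the same number were read as pieces of the same embryo, because the study took 3 pieces from each of 4 control and 5 mutant embryos, but no label states this. Deviations from the group means correlated by -0.02 to 0.11 between same-numbered libraries (27 pairs, 2 of them over 0.1). For every pair of regions in either genotype their mean was positive, from 0.018 to 0.086. Between libraries of different number the means ran from -0.028 to -0.0046. Deviations from a group mean sum to 0, so a positive mean of the former forces a negative mean of the latter.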

Additional observations from a re-analysis of the deposited data

Results flagged for a closer look

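Among 60 combinations of member and group, 7 had a library far from the others of its group (a gap to the nearest library above the Dixon limit at 95%, on log2(CPM + 1)), and chance alone flags about 1 in 20 groups. Vim was at 3342 CPM in ventral control 3, against 1683 to 1740 CPM in the other 3 ventral controls. Nfib was at 74.1 CPM in dorsal mutant 2, against 191 to 225 CPM in the other dorsal mutants. Hopx stood out in 4 groups, at 3.39 CPM in dorsal mutant 3, 0.204 CPM in axon mutant 3, 1.18 CPM in ventral control 4 and 0.504 CPM in axon control 4, with the other libraries of these groups at 0 to 0.0571 CPM. Aldoc was at 6.15 CPM in ventral mutant 2 and at 0 in the other ventral mutants. Where all other libraries of a group are at 0, any count is flagged, so the rate of 1 in 20 does not apply there. The 0.204 CPM of Hopx in axon mutant 3 was 3 reads, no more than a count of 0 allows.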

How the results depend on the processing

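Slc1a3, Vim, Nfia and Nfib kept a negative dorsal genotype value under each of the 9 alternatives of the fit and without each of the 9 dorsal libraries in turn, where the values ran from -1.67 to -1.39, -1.12 to -0.77, -2.13 to -1.50 and -1.82 to -0.89. The number of members called there was 0 in the edgeR fit and 1 with DESeq2 (Slc1a3) or without a count filter (Vim), and 0 without each library in turn. Members lower at an unadjusted p under 0.05 numbered 4, and 2 to 4 with a library left out (2 without mutant replicate 4). In the ventral region that count was 0, and 1 with DESeq2 or batch B alone. In the axon region it was 0, 1 with batch B alone, no batch term or no count filter, and 0 to 1 with a library left out. The exact permutation test of the dorsal region gave 4 members at p under 0.05 in every setting tried, and 4 members were lower without overlap, also with batch B alone or without control replicate 1 or 3 (chosen after seeing the data). Groups that do not overlap fix these counts almost wholly, so they say nothing about stability.

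Counts over all genes moved far more. In the dorsal region edgeR called 2 genes (864 at an unadjusted p under 0.05), against 532 with DESeq2, 101 without a filter, 52 with limma voom, 39 with the newer edgeR method, 8 without a batch term, 0 in batch B and 0 to 2 with a library left out. In the ventral region it called 0 (515 unadjusted), against 342 with DESeq2, 8 without a filter and 5 with limma voom. In the axon region it called 0 (531 unadjusted), against 1233 with DESeq2, 49 with limma voom, 10 without a filter and 5 with all 27 libraries in 1 fit. The cause was not tested.

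Between regions, the 6 members not picked for region gave 0 calls for dorsal against ventral mutants, and 1 (Vim) with DESeq2, the newer edgeR method, no count filter or the replicate block, and 0 to 1 with a library left out (1 without ventral replicate 2). For dorsal against axon mutants the count was 1 (Vim), 2 with DESeq2 (Vim and Aldoc), 0 with limma voom and 1 without each library in turn. The replicate block changed no other call of these members, regional or interaction. At these depths 0 counts allow up to 0.275 CPM, which limits what can be said of Nfix, Hopx and Aldoc. Batch A holds 1 control and gave values only.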

Other observations

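Among the members themselves, ranks over the 27 libraries were most alike for Fabp7 and Nes (Spearman's rho 0.695), Fabp7 and Vim (0.654) and Slc1a3 and Nfib (0.542). They were most opposed for Nes and Gja1 (-0.711) and Fabp7 and Gja1 (-0.595). Fabp7, Nes and Gja1 were picked for their regional levels, and the libraries share region, embryo and batch, so these values are a description.

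Proliferation genes (8 genes, such as Mki67 and Pcna) summed to 1178 to 2774 CPM in dorsal controls and 2380 to 3680 CPM in dorsal mutants, with overlap, and all 8 had a positive log2 fold change in the dorsal region (median 0.78, none called, 2 at an unadjusted edgeR p under 0.05). Retinal progenitor genes (6 genes) summed to 119 to 347 CPM in dorsal controls and 358 to 955 CPM in dorsal mutants, without overlap. Of the 5 genes of that list tested, 4 had a positive and 1 a negative log2 fold change, and none was called. Pax6, a regulator of eye development among them, was higher in all 5 mutants than in any control, as were 1.31% of all genes. The edgeR log2 fold change of Pax6 was 2.27 ± 0.38 (SE), with an adjusted p of 0.104.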
